A study of Homo sapiens with 6 samples.

Results

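The complement genes described here are 9 genes of the complement cascade and its control, chosen by symbol: the components C1R, C1S, C3 and CFB, the soluble regulators CFI and CLU, and the membrane regulators CD46, CD55 and CD59. Each symbol matched 1 row of the count table, so the 9 genes are 9 of its 34811. Their mRNA was measured by RNA-seq in OVCAR-3, an established human cell line of serous ovarian carcinoma. OV3/SCR cells carry a scrambled pRS shRNA HuSH-29 plasmid and are wild-type for COX-1, the cyclooxygenase encoded by PTGS1, and OV3/COX1KD cells carry an shRNA against it. Both are stable, puromycin-selected derivatives of OVCAR-3 grown in RPMI-1640 with fetal bovine serum, and each was sequenced in 3 libraries made from independent cell populations. Each group was 1 clone, so the knockdown and the clone cannot be told apart, and p-values measure the spread between passages of 1 clone.

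Complement is a chain of proteases and binding proteins that marks surfaces for clearance and can end in a membrane pore. C1r and C1s are the proteases that start the classical pathway, and C3 is the protein on which all pathways meet. Factor B, the product of CFB, joins cleaved C3 in the protease that amplifies its own cleavage. Host cells limit the cascade with factor I, which inactivates cleaved C3 and C4, with the cofactor CD46, with CD55, which breaks up the convertases, and with CD59 and clusterin (CLU), which hinder the assembly of the pore. The liver makes most of the plasma proteins of the cascade, and epithelial tumor cells can make several of them as well.

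In OV3/COX1KD cells the transcripts of both C1 proteases, of factor I, CD46 and CLU were higher than in OV3/SCR cells, and those of C3 were lower. Among the 8 genes that could be tested, C1R had the largest change, to 2.5-fold the control level, while C3 fell to 61.2% of it. CD55 and CD59 did not pass the test and their libraries overlapped between the groups. CFB was close to the limit of detection, with 29 counts in all OV3/SCR libraries together and 7 in all OV3/COX1KD libraries. Counts were compared by edgeR's quasi-likelihood test over 17309 genes that passed a filter on low counts, and a gene was called at an edgeR false discovery rate (FDR, adjusted p) under 0.01. Of the 9 genes 8 could be tested, and 5 were called higher and 1 lower. Over all tested genes 47.9% were called, 25.8% higher and 22.1% lower, so calls were common in this comparison. A log2 fold change beyond 0.5 went with the call for 3 higher genes and 1 lower gene, against 19.9% of all tested genes in either direction. In 6 of the 8 tested genes no library of one group overlapped the other group, as was the case for 63.2% of all tested genes. The median log2 fold change was 0.37 over the 8 genes and -0.0087 over all tested genes.

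**Figure D1:**
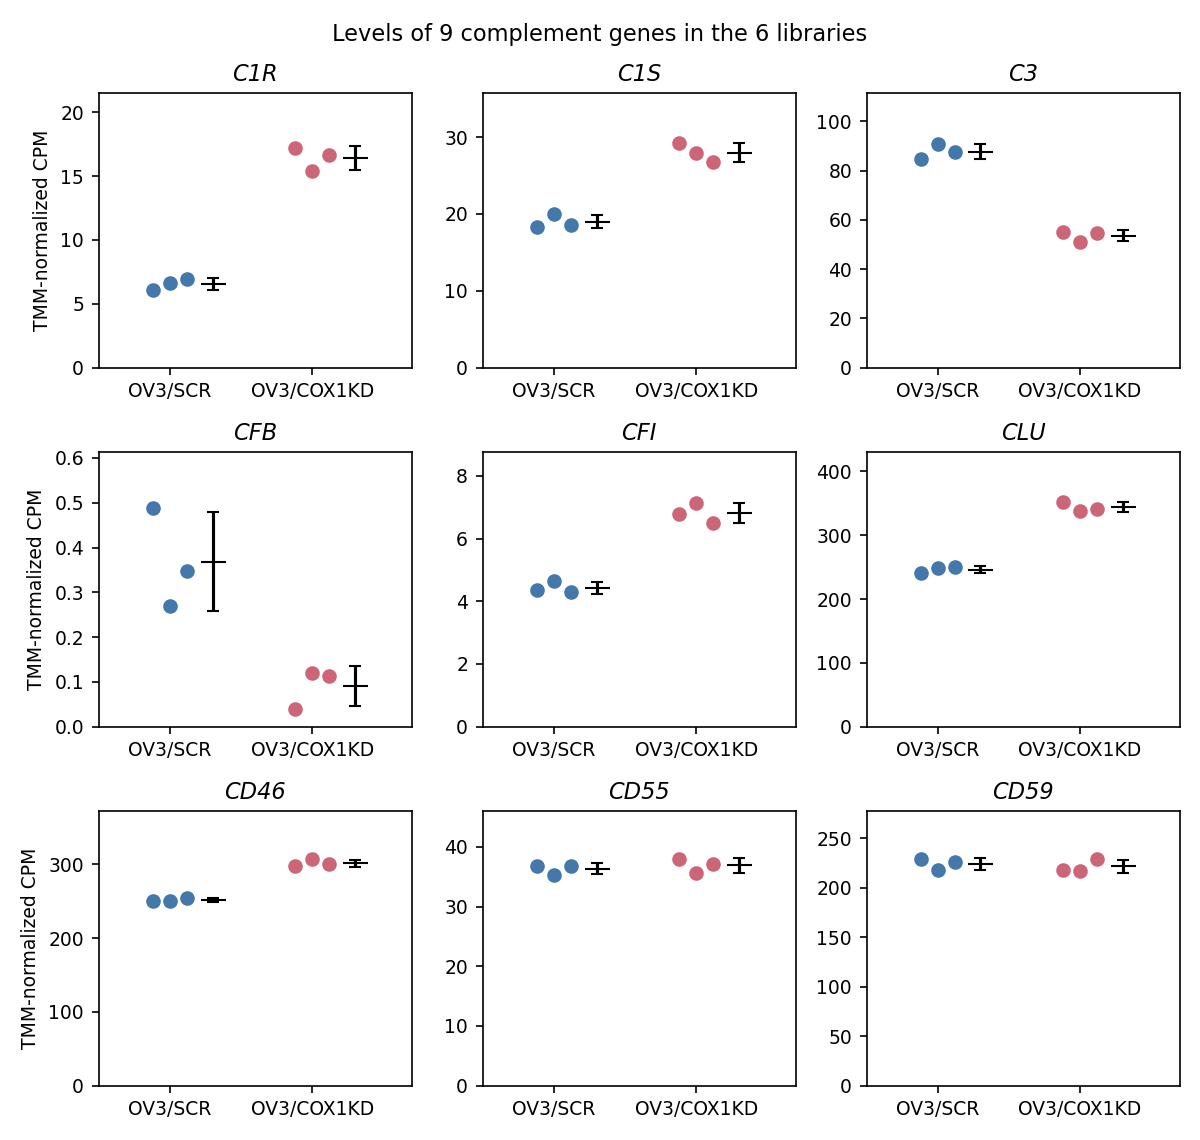
Levels of the 9 complement genes in each library, as TMM-normalized CPM (counts per library size, after edgeR's TMM scaling of the libraries) on axes that start at 0, with the mean and SD of the 3 libraries of each group beside the points. The groups are parted for C1R, C1S, CFI, CLU and CD46 (higher in OV3/COX1KD) and for C3 and the barely detected CFB (lower), and overlap for CD55 and CD59.

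The libraries held 25291505 to 27391538 counts on genes, and TMM factors lay between 0.97 and 1.035. The floor of 3 counts corresponded to 0.113 to 0.12 CPM, which covers counting error only, since reads copied by PCR are not independent molecules. PTGS1, the target of the shRNA, had 713, 658 and 641 counts in OV3/SCR and 456, 486 and 501 in OV3/COX1KD, which left 73.3% of the control mRNA level (log2 fold change -0.45 ± 0.057 SE, edgeR FDR 1.34e-06). For the protein, which RNA-seq does not measure, the study reported a robust fall by Western blot in its knockdown clones. All 9 markers fixed for ovarian serous carcinoma were detected, at a summed 5588 to 5654 CPM in OV3/SCR and 7179 to 7372 in OV3/COX1KD. Of them 7 were called higher and 2 lower, against 25.8% and 22.1% of all tested genes. The lower ones were KRT7 (log2 fold change -0.14) and the lineage factor PAX8, which went from 756 ± 18.6 to 447 ± 23.7 CPM (-0.76, edgeR FDR 4.29e-13). Of 8 macrophage markers 5 were in the table, and none of them passed the filter on low counts, with summed levels of 0.825 to 1.01 CPM and 0.413 to 0.758 CPM. Liver cell markers summed to 4.22 to 4.95 CPM in OV3/SCR and 10.5 to 11.1 in OV3/COX1KD, nearly all of it APOA1, and ALB had at most 2 counts in any library. The 6 fibroblast markers summed to 10.9 to 11.6 CPM and 6.72 to 7.43 CPM, mostly COL1A1, which was called lower (-0.77). The part of these markers in the results below was not tested.

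The sequence upstream of the start of 3 of the genes is shown because they include the tested gene with the largest change, C1R, the scarcest gene, CFB, and a regulator with a rise, CFI. RefSeq promoter windows of GRCh38.p14, 250 bases before to 50 bases after a start, matched 6 of the 9 genes (CFB, CFI, C1R, CD46, CD55 and CD59). The 250 bases before the start are given 5′ to 3′ on the strand of the gene, for C1R at chr12:7092446-7092695 (minus strand), for CFB at chr6:31945845-31946094 (plus strand) and for CFI at chr4:109802000-109802249 (minus strand). Capitals mark a match, on either strand, to 1 of 7 short patterns that factors of the acute phase response and general promoter factors are known to bind.
C1R: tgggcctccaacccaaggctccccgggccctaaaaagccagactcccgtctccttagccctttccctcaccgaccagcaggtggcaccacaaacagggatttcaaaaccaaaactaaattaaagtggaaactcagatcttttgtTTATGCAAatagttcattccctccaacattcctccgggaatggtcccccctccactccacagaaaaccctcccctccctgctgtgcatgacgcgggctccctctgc
CFB: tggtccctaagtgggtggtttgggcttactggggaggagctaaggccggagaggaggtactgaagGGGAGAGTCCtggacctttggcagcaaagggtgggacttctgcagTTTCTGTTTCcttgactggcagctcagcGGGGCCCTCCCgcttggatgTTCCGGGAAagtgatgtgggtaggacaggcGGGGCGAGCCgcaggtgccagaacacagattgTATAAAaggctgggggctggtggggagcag
CFI: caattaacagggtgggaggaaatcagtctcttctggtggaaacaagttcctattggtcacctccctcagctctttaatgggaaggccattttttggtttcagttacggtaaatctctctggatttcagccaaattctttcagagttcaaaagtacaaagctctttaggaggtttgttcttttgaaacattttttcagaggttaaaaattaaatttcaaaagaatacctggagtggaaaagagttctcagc
The patterns were GGG and CC parted by any 5 bases (NF-kB type), TTCNNNGAA (the GAS element of STAT factors), GAAA repeated after any 2 bases (the ISRE of interferon factors), TTGCNNAA (C/EBP), TGACGTCA (CRE), TATAAA, the box of many core promoters that bears its first letters as a name, and GGGCGG, called the GC box. The CFB window held 5 NF-kB type matches, of which 3 overlapped each other, a GAS match at -92, an ISRE match at -140 and a TATA box at -30 from the start. The C1R window shown held a C/EBP match at -106, and the NF-kB type letters on both strands at 24 bases after the start, past the part printed. Another C1R start had a window with a GAS match at -86, a C/EBP match at -167 and an NF-kB type match at -185. The CFI window held none of the 7 patterns. The windows of CD46 held up to 6 NF-kB type matches and 3 GC boxes, some of them overlapping, and that of CD55 held 1 of each. The 4 windows of CD59, a gene that was not called, held up to 3 NF-kB type matches, 2 C/EBP matches, 2 GC boxes and, in 2 windows that overlap, the same GAS match (at -128 and at -184 from their starts). Among all 35116 RefSeq windows of this length the NF-kB type letters occurred in 58.7%, a GC box in 45.0%, a TATA box in 11.5%, C/EBP letters in 10.5%, GAS letters in 7.66%, ISRE letters in 3.57% and the CRE in 1.85%. A match is a description of the letters and no measure of binding.

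C1R (ENSG00000159403, chr12:7187513-7245203 of GRCh37, minus strand) encodes the protease that is first activated in the C1 complex and then cleaves C1s. Its reads numbered 162, 173 and 180 in OV3/SCR against 433, 386 and 443 in OV3/COX1KD. Every OV3/COX1KD library lay more than 2-fold above every OV3/SCR library. The level rose from 6.56 ± 0.448 to 16.4 ± 0.92 CPM (SD, n = 3 libraries each). The log2 fold change was 1.32 ± 0.081 (SE), with an edgeR FDR of 3.81e-11, and 98.4% of all tested genes had a lower value. The study set its limit for a changed gene at a fold change above 2.5, and the 95% interval of C1R, 2.22-fold to 2.82-fold, spans that limit. By DESeq2, which the study used, the log2 fold change of C1R was 1.319, just under that limit. Exons of C1RL, the neighboring C1r-like gene on the same strand, cover 14.3% of the annotated exon bases of C1R.

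C1S (ENSG00000182326, chr12:7096351-7178336, plus strand) encodes the protease that C1r activates and that cleaves C4 and C2, and lies next to C1R on the opposite strand. Its counts were 489, 520 and 481 in OV3/SCR and 734, 701 and 714 in OV3/COX1KD, without overlap between the groups. The level went from 19.0 ± 0.864 to 28.0 ± 1.18 CPM, a log2 fold change of 0.56 ± 0.057 (SE, edgeR FDR 6.98e-08). The rise of C1S was smaller than that of C1R, as the 95% intervals of their log2 fold changes, 0.44 to 0.68 and 1.15 to 1.49, did not meet. Within a library, the counts of C1R per count of C1S were 0.331, 0.333 and 0.374 in OV3/SCR and 0.59, 0.551 and 0.62 in OV3/COX1KD. This ratio separated the groups, at p = 0.1 in a two-sided exact permutation test, the smallest value that 3 against 3 libraries can give. It was 1 of 5 ratios tested in this way, and 0.125 after Benjamini-Hochberg adjustment over them.

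C3 (ENSG00000125730, chr19:6677715-6730573, minus strand), the central component, was the only 1 of the 8 tested genes called lower. It had 2263, 2365 and 2258 counts in OV3/SCR and 1385, 1283 and 1455 in OV3/COX1KD. The highest OV3/COX1KD library was far below the lowest OV3/SCR library. Levels were 87.7 ± 2.95 and 53.6 ± 2.1 CPM, and the log2 fold change was -0.71 ± 0.041 (SE, edgeR FDR 1.28e-11, 95% interval -0.79 to -0.62). Of all tested genes 9.0% had a lower log2 fold change. A noncoding gene on the same strand that is not a row of the table (ENSG00000276980) covers 11.7% of the exon bases of C3.

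CFB (ENSG00000243649, chr6:31913427-31919863, plus strand) had 13, 7 and 9 counts in OV3/SCR and 1, 3 and 3 in OV3/COX1KD. None of the 3 OV3/COX1KD libraries exceeded the floor of 3 counts, whereas all 3 OV3/SCR libraries did. The gene failed the filter on low counts and has no value in the test of all genes. From the summed counts and library sizes the level in OV3/COX1KD was 0.247 times that in OV3/SCR, with an exact 95% interval of 0.0912 to 0.576 that covers counting error only. Without any filter the edgeR test gave a log2 fold change of -1.94 and an FDR of 0.00465, a value fitted to counts at the floor. Exons of other genes, mainly ENSG00000244255, which is not a row of the count table, cover 42.8% of the exon bases of CFB, so its counts also depend on how shared reads were assigned.

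CFI (ENSG00000205403, chr4:110652164-110723306, minus strand) encodes factor I, the protease that inactivates cleaved C3 with the help of a cofactor. Its counts were 116, 121 and 111 in OV3/SCR and 171, 179 and 173 in OV3/COX1KD. The groups did not overlap, and the spread within each group was small. Levels were 4.43 ± 0.187 and 6.81 ± 0.325 CPM, with a log2 fold change of 0.62 ± 0.10 (SE, edgeR FDR 3.75e-05, 95% interval 0.40 to 0.84). Since CFI rose where C3 fell, the number of CFI counts per C3 count went from 0.0505 ± 0.00119 to 0.127 ± 0.0108 (exact permutation p = 0.1, the smallest possible, 0.125 adjusted over the 5 ratios). Exons of a gene that is not a row of the count table, ENSG00000285330, cover 29.4% of the exon bases of CFI.

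CLU (ENSG00000120885, chr8:27454434-27472217, minus strand) encodes clusterin, a secreted chaperone that also binds the terminal complex. It had 6402, 6465 and 6465 counts in OV3/SCR and 8870, 8464 and 9087 in OV3/COX1KD, with no overlap between the groups. Levels were 246 ± 5.25 and 344 ± 7.7 CPM. Its log2 fold change was 0.48 ± 0.03 (SE, edgeR FDR 4.62e-11, 95% interval 0.42 to 0.54), or 1.40-fold, below the 0.5 that the study used for the colors of its figures. Of 13 expressed genes within 1 Mb of CLU, 7 were called higher and 2 lower. Over all tested genes, which include scarcer ones, 25.8% were called higher and 22.1% lower. Calls were also common near C1S, with 16 higher and 10 lower of 39. The median log2 fold change near CLU, 0.20, was the highest among the neighborhoods of the 9 genes, and near PTGS1 it was 0.21.

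The 3 membrane regulators differed from each other. CD46 (ENSG00000117335, chr1:207925382-207968858, plus strand), the cofactor of factor I on the cell surface, had 6685, 6518 and 6592 counts in OV3/SCR and 7485, 7693 and 8015 in OV3/COX1KD. Its groups did not overlap at 252 ± 2.64 and 302 ± 4.86 CPM, and its log2 fold change of 0.26 ± 0.029 (SE, edgeR FDR 1.83e-07) was the smallest of the 6 that were called. This size is close to the median absolute log2 fold change of all tested genes, 0.28. MIR29B2CHG, a noncoding gene on the opposite strand, covers 5.1% of the exon bases of CD46, and without a stated strand setting reads there cannot be told apart.

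CD55 (ENSG00000196352, chr1:207494864-207560149, plus strand), the decay-accelerating factor, had 982, 919 and 953 counts in OV3/SCR and 957, 892 and 989 in OV3/COX1KD. The groups overlapped, from 35.3 to 36.9 CPM in OV3/SCR and from 35.6 to 38.0 in OV3/COX1KD, with means of 36.3 ± 0.915 and 36.9 ± 1.23. Its log2 fold change was 0.023 with a 95% interval of -0.074 to 0.12 (edgeR FDR 0.688), so a difference of more than 1.09-fold upward lay outside the interval. CD59 (ENSG00000085063, chr11:33724556-33758025, minus strand), the lipid-anchored inhibitor of the pore, had 6101, 5666 and 5845 counts in OV3/SCR and 5495, 5448 and 6100 in OV3/COX1KD. The highest and the lowest libraries of CD59 were both in OV3/COX1KD on the CPM scale, with means of 224 ± 5.97 and 222 ± 6.42. Its log2 fold change was -0.017 with a 95% interval of -0.084 to 0.050 (edgeR FDR 0.679).

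Among the 3 membrane regulators, the ratios of CD46 to CD59 and to CD55 were higher in every OV3/COX1KD library than in every OV3/SCR library. Counts of CD46 per count of CD59 were 1.10, 1.15 and 1.13 in OV3/SCR and 1.36, 1.41 and 1.31 in OV3/COX1KD, and those of CD46 per CD55 went from 6.94 ± 0.144 to 8.18 ± 0.407. Both ratios separated the groups, at the smallest p that 3 against 3 libraries can give (exact permutation p = 0.1 each, 0.125 adjusted over the 5 ratios). The ratio of CD59 to CD55 was 6.17 ± 0.04 and 6.01 ± 0.231, with overlapping libraries (exact permutation p = 0.3). Together the 3 regulators summed to 512 ± 8.35 CPM in OV3/SCR and 560.0 ± 6.58 in OV3/COX1KD.

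**Figure D2:**
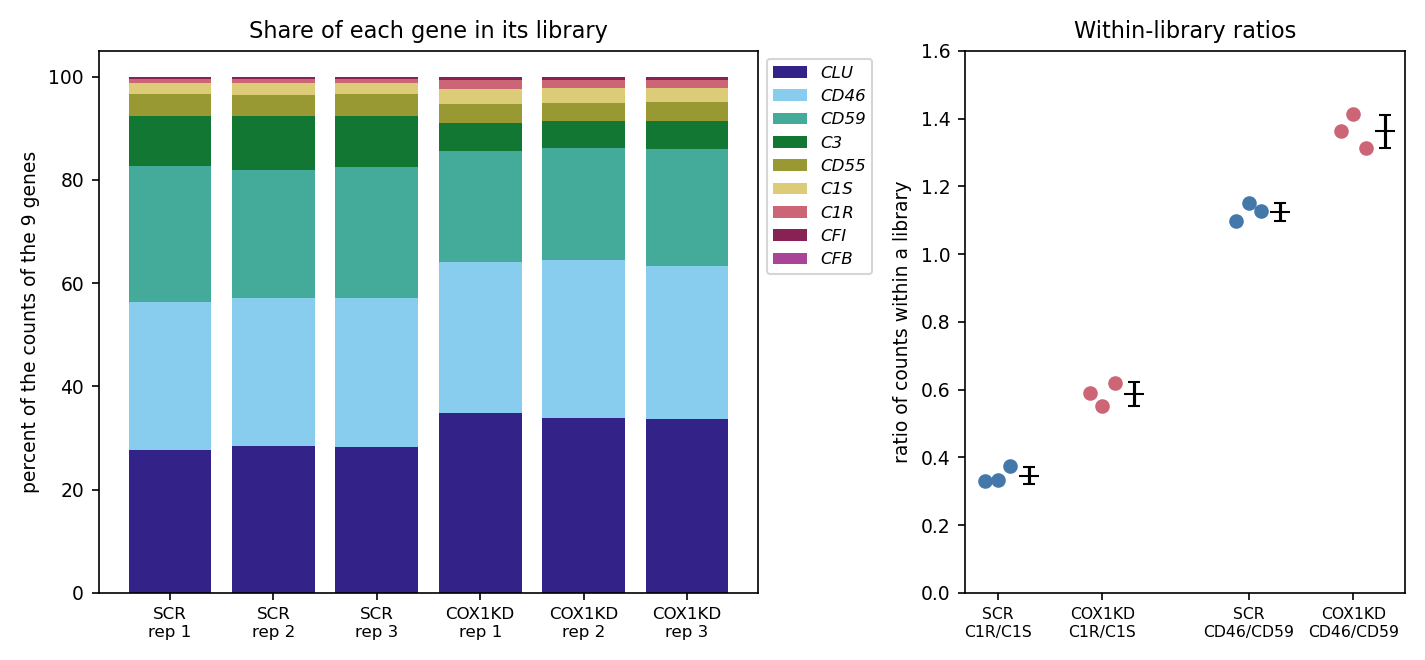
Left, percent of the summed counts of the 9 genes taken by each gene in each library (stacked bars from 0 to 100). Right, ratio of counts within a library for C1R to C1S and for CD46 to CD59, as points per library with the mean and SD of 3. CLU grows from 28.1% to 34.1% and C3 shrinks from 10.0% to 5.31% of the stacked counts, and both ratios are higher in every OV3/COX1KD library.

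As a share of the summed counts of the 9 genes, CLU, CD46 and CD59 held 82.4% ± 0.38 in OV3/SCR and 85.9% ± 0.338 in OV3/COX1KD. CLU went from 28.1% ± 0.44 to 34.1% ± 0.584 and C3 from 10.0% ± 0.344 to 5.31% ± 0.166. The share of CD59 was 25.6% ± 0.692 and 22.0% ± 0.574, lower although its level did not pass the test, because the sum over the 9 genes was larger in OV3/COX1KD. These shares are not independent of each other and were not tested. A long transcript yields more reads than a short one, so levels of different genes were compared as CPM per kilobase of annotated exon. On this scale the order in OV3/SCR was CLU at 39.2, CD59 at 21.2, CD46 at 16.3, C3 at 7.57, CD55 at 3.54, C1S at 2.29, C1R at 1.40, CFI at 0.833 and CFB at 0.0693, and no neighbors in this order overlapped between libraries. In OV3/COX1KD CLU was at 54.7, CD59 at 21.0, CD46 at 19.5, C3 at 4.63 and CFI at 1.28. There C1R at 3.50 stood between CD55 at 3.60 and C1S at 3.37, and it overlapped both. The order depends on the length used: per kilobase of the longest coding transcript CD46 was above CD59 in both groups, at 74.8 against 29.0 in OV3/SCR, and in OV3/COX1KD C1S was above C1R and CD55 above C3.

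**Figure D3:**
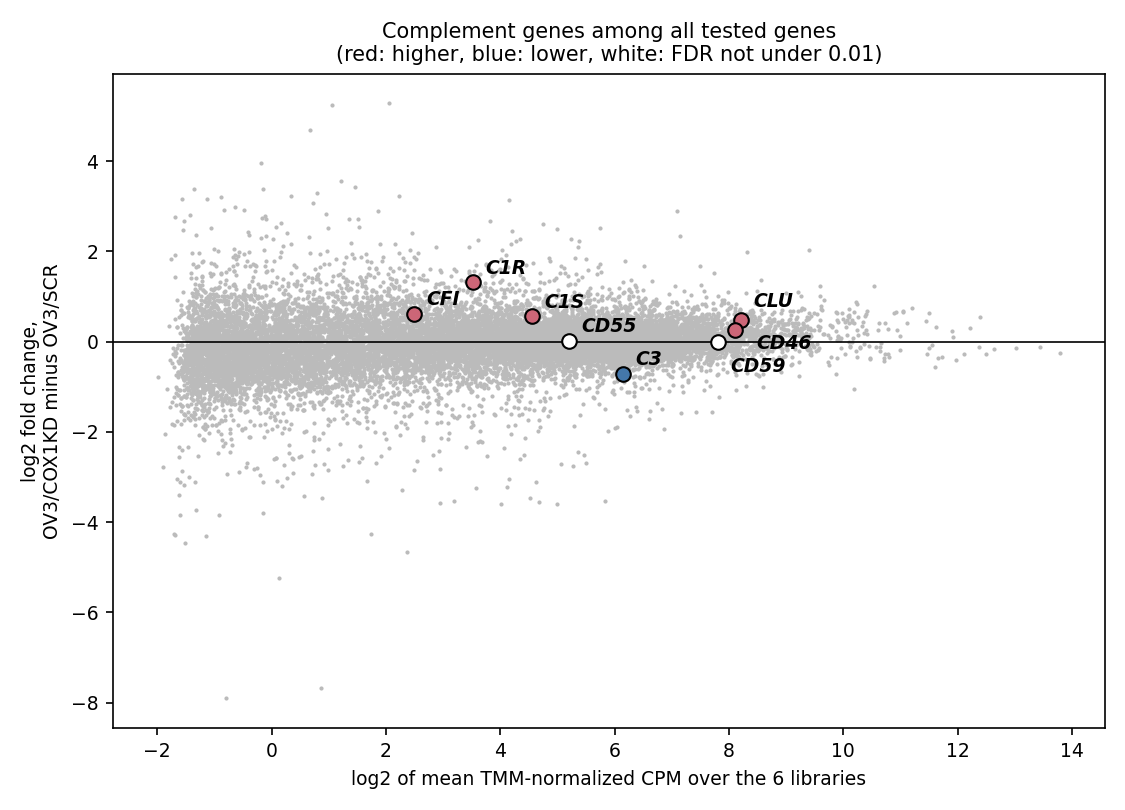
Log2 fold change of OV3/COX1KD against OV3/SCR (vertical axis) against the log2 of the mean TMM-normalized CPM of all 6 libraries (horizontal axis) for the 17309 tested genes in gray, with the 8 tested complement genes as large points. C1R at 1.32 lies above 98.4% of the tested genes, C3 at -0.71 lies above 9.0% of them, and CD55 and CD59 lie on the line of no change.

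The remaining genes of the cascade came from a list of 63 symbols, which includes the 9 genes. Of these 47 were in the table and 28 passed the filter, and 12 were called higher and 3 lower, with 13 not called and a median log2 fold change of 0.30. Over all tested genes 47.9% were called, 25.8% higher and 22.1% lower. The 15 calls of 28 are close to that total, with a larger part higher and a smaller part lower. Groups did not overlap in 20 of the 28, against 63.2% of all tested genes. In the classical pathway 3 of 4 tested genes were called higher (C1R, C1S and, at a log2 fold change of 0.35 ± 0.052, C1RL). None of the 3 tested genes of the lectin pathway (COLEC12, MASP1 and MASP2) was called by edgeR or DESeq2, and 0 had an unadjusted edgeR p under 0.05. C2, the partner of C4 in the classical convertase, had 13 to 14 counts in OV3/SCR and 7 to 10 in OV3/COX1KD (edgeR FDR 0.152), and C4A had at most 2 counts in any library.

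CFD encodes factor D, the protease that cleaves factor B. It had 214, 170 and 204 counts in OV3/SCR and 329, 336 and 363 in OV3/COX1KD, a log2 fold change of 0.84 ± 0.086 (SE, edgeR FDR 6.69e-08). It therefore stood opposite to C3 and the barely detected CFB within the alternative pathway. C5, from which the terminal complex starts, had 84, 57 and 70 counts against 178, 138 and 156, with a log2 fold change of 1.19 ± 0.14 (edgeR FDR 6.44e-07).

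SERPING1 encodes the C1 inhibitor, the serpin that removes C1r and C1s from their complex. Its counts were 122, 161 and 142 in OV3/SCR and 311, 311 and 281 in OV3/COX1KD, so the inhibitor rose along with both proteases (log2 fold change 1.12 ± 0.11 SE, edgeR FDR 2.24e-08). SUSD4, a membrane protein with complement control domains, had 186, 165 and 184 counts against 365, 387 and 365, a log2 fold change of 1.09 ± 0.083 (edgeR FDR 8.38e-10).

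Among receptors and binding proteins, CR2, the receptor for C3 fragments known from B cells, had 4, 9 and 11 counts in OV3/SCR and 46, 43 and 49 in OV3/COX1KD (log2 fold change 2.54 ± 0.29 SE, edgeR FDR 3.3e-07). The 2 lymphocyte markers in the table summed to 0.45 to 1.15 CPM in OV3/SCR and 0.375 to 0.798 in OV3/COX1KD. CALR, calreticulin of the endoplasmic reticulum, which binds C1q, had 15895, 15601 and 15618 counts against 24882, 24447 and 26119, a log2 fold change of 0.71 ± 0.027 (edgeR FDR 2.12e-14). C5AR1, the receptor of the C5a peptide, was called lower with overlapping groups, at 450, 530 and 443 counts in OV3/SCR and 325, 446 and 296 in OV3/COX1KD (log2 fold change -0.38 ± 0.12, edgeR FDR 0.0084). DESeq2 gave it an adjusted p of 0.129. Without OV3/COX1KD replicate 2, the one that overlaps OV3/SCR, its log2 fold change was -0.59 (FDR 8.69e-10), and without OV3/COX1KD replicate 3 it was -0.24 (FDR 0.07). Leaving out OV3/SCR replicate 2 gave -0.29 (FDR 0.0866), so the size and the call of C5AR1 rest on single libraries.

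**Figure D4:**
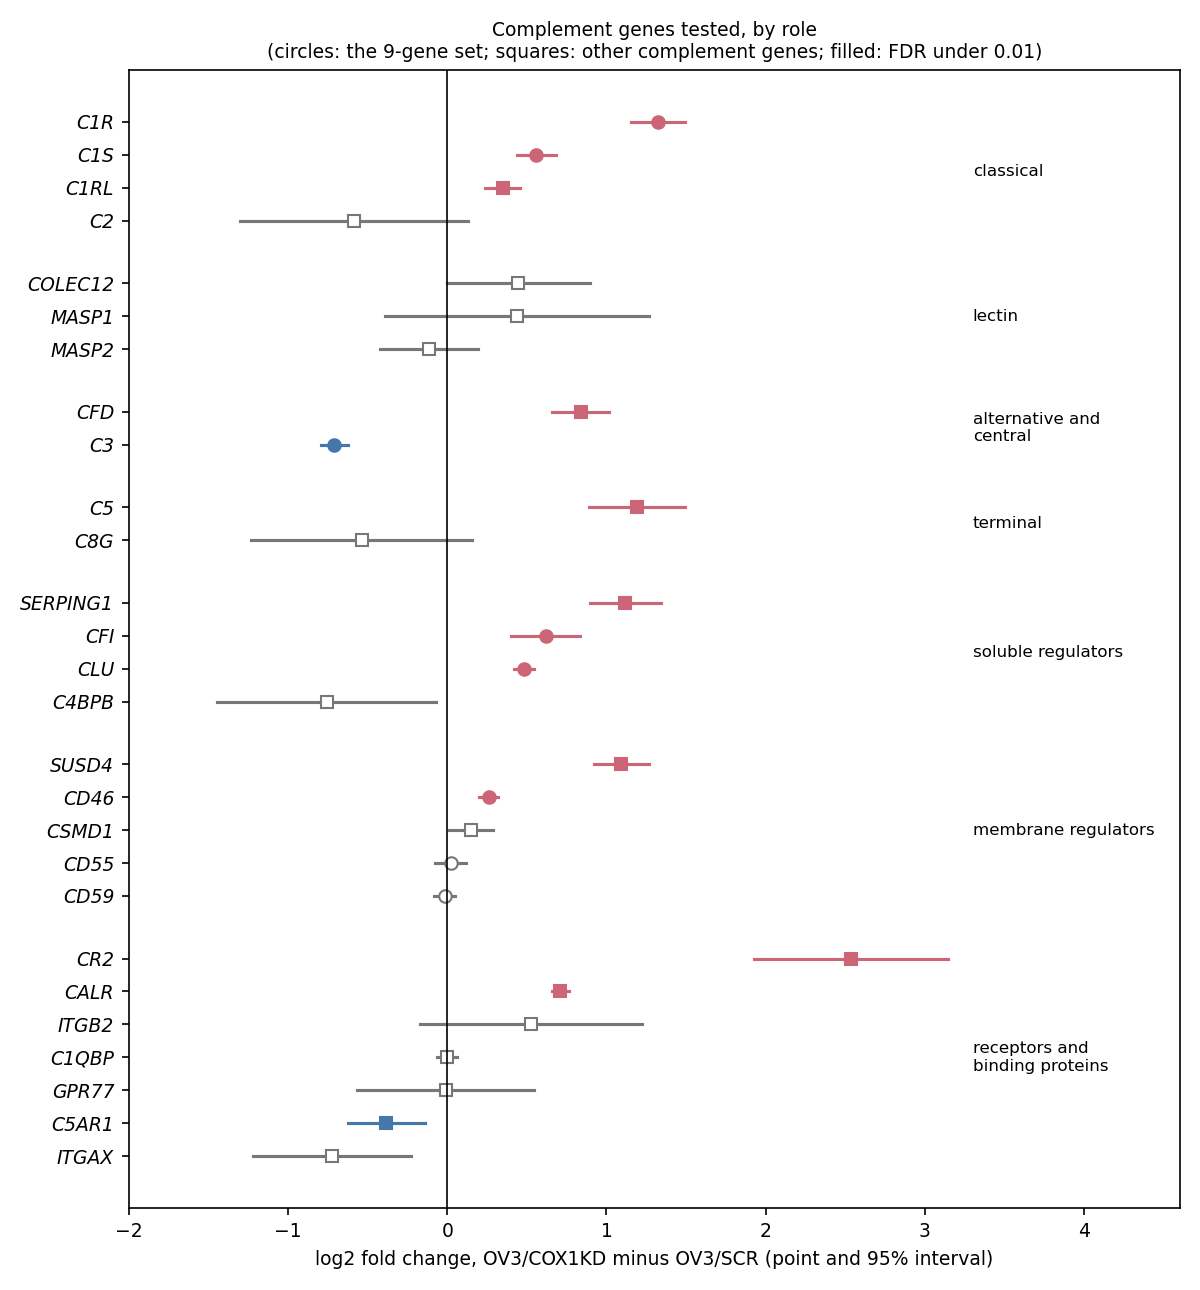
Log2 fold change of OV3/COX1KD against OV3/SCR with its 95% interval for 27 tested complement genes, grouped by role, with filled symbols where the edgeR FDR is under 0.01. Red points to the right (12 genes, up to 2.54 for CR2) outnumber blue points to the left (C3 and C5AR1), and wide intervals belong to genes with few counts. Over all 28 tested genes of the list 12 were called higher and 3 lower, against 25.8% and 22.1% of all tested genes.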

How the data were processed

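RNA-seq was performed on 3 OV3/SCR and 3 OV3/COX1KD libraries (TruSeq, total RNA). Alignment by the authors was to hg19 with TopHat2 (version 2.0 per the labels). HTSeq gave the reads per gene, which the authors deposited as raw counts with no scaling. The gene annotation and strand setting are not given in the sources used here. Groups and replicate numbers came from the labels.

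The counts were analysed with edgeR 4.0.16 in R 4.3.3 (TMM, filterByExpr, glmQLFit and glmQLFTest, group as the only factor, Benjamini-Hochberg over 17309 of 34811 genes, FDR under 0.01). The SE is the size of the log2 fold change divided by the square root of F, and CPM uses TMM-scaled library sizes. The biological coefficient of variation was 3.21%. Coordinates and exon lengths were from GENCODE lifted to GRCh37 (33556 genes with an entry), and promoters from RefSeq, GRCh38.p14. Motif shares counted both strands. Libraries of a group differed by more than sampling noise, so none was a copy of another. Scripts were tested on simulated data with 200 changed genes. That is a far smaller share than the 47.9% of tested genes called here, so scaling with many changed genes was not checked.

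All 9 genes are named, as are genes of the 63-symbol list called with a change beyond 0.5 on the log2 scale, and, of the acute phase and regulating factor lists, the 4 called genes each with the largest change. C1RL, C2, C4A, C5AR1, COLEC12, MASP1, MASP2, APOA1, ALB, PAX8, KRT7, COL1A1, SAA1, SAA2, HP, A2M, SERPINA1, TF, HAMP and the genes given with and after NFKB2 among the regulating factors were added after their values were seen. The genes and lists were chosen with earlier results of these data known. Alternatives were DESeq2 1.42.0, a replicate block, each library left out in turn, scaling by RLE or by total count, and another filter (none, or a minimum of 10 counts throughout). Other genes of the cascade, among them C1QA, C1QB, C1QC, C4B, C8A, C8B and C9, were not analysed here, and 1 gene that is part of the counts of the list is not reported here.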

Additional observations from a re-analysis of the deposited data

How the results depend on the processing

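Over 12 alternatives all calls of the 8 tested genes kept their direction and their side of the threshold. Ranges of the log2 fold change were -0.79 to -0.67 for C3, 1.25 to 1.37 for C1R, 0.48 to 0.60 for C1S, 0.54 to 0.66 for CFI, 0.18 to 0.28 for CD46 and 0.40 to 0.50 for CLU. C1R was above the 2.5-fold limit in 5 of the 12 and lay between 2.37-fold and 2.59-fold. The uncalled values changed sign, for CD55 from -0.055 to 0.055 and for CD59 from -0.095 (total count scaling, FDR 0.0175) to 0.0059. Without a filter on low counts 2 genes rather than 1 were lower, as CFB then entered the test. In the list of 63 symbols DESeq2 called 1 lower and leaving out 1 library each called 1 to 3, against 3. With 1 library left out, C5AR1 kept its call only without OV3/COX1KD replicate 2. With the replicate block 12 of that list were higher and 2 lower, the log2 fold change of C1R was 1.32 and that of C3 -0.71, and no call of the 9 genes changed. Deviations from the group mean in libraries of the same number correlated at -0.0032, 0.045 and 0.026 across genes. The mean over libraries of different numbers was -0.011. Whether libraries of the groups shared a passage or a batch was not tested. Of all calls 53.9% were higher, but 41% under total count scaling, which shifted the median gene by -0.078 on the log2 scale. At this depth C4A did not exceed the floor of 3 counts in any library, and CFB did so in OV3/SCR only, which leaves the size of its change uncertain.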

Other observations

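Of a list of 18 genes of the acute phase response, 11 were in the table, 7 were tested, and 4 were called higher and 0 lower by edgeR and by DESeq2, with 0 lower at an unadjusted edgeR p under 0.05 as well, while 47.9% of all tested genes were called and 25.8% were higher. The 3 tested genes that were not called were SERPINA1 (log2 fold change 0.015), TF and HAMP. TF, with 14, 11 and 10 counts against 3, 9 and 8, had a log2 fold change of -0.76 (edgeR FDR 0.118) and groups that did not overlap. HAMP, with 21, 11 and 12 counts against 11, 7 and 8, had -0.72 (edgeR FDR 0.105). Among the untested ones, SAA2 had 11, 11 and 5 counts in OV3/SCR and 4, 2 and 5 in OV3/COX1KD, and HP had 4, 4 and 4 against 0, 1 and 2. A2M had 4, 6 and 4 against 12, 3 and 12, and SAA1 had at most 2. ORM1, a plasma carrier glycoprotein, had 181, 163 and 164 counts in OV3/SCR and 658, 671 and 702 in OV3/COX1KD (log2 fold change 2.03 ± 0.068 SE, edgeR FDR 3.9e-15). Its near-identical copy ORM2 had 7 to 14 counts against 32 to 40 (1.78 ± 0.28), and reads of these copies cannot be parted with certainty. CP, the copper carrier ceruloplasmin, had 14094 to 15209 counts in OV3/SCR and 25067 to 29348 in OV3/COX1KD (log2 fold change 0.91 ± 0.034, edgeR FDR 2.12e-14). LCN2, an iron-binding neutrophil and epithelial protein, had a log2 fold change of 0.24 ± 0.06 (edgeR FDR 0.00215), which became 0.16 with an FDR of 0.0271 under total count scaling, and its FDR was also over 0.01 without OV3/SCR replicate 1 or 2.

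Of 25 genes for cytokine receptors and factors known to act on complement genes, all 25 were in the table and 23 were tested, with 6 called higher and 10 lower, against 25.8% and 22.1% of all tested genes. IL1R1, the interleukin-1 receptor, had 1150, 1173 and 1147 counts in OV3/SCR and 148, 108 and 136 in OV3/COX1KD (log2 fold change -3.11 ± 0.075, edgeR FDR 2.98e-17). IL6R, the interleukin-6 receptor, had 382, 371 and 343 counts against 106, 105 and 127 (-1.66 ± 0.09). IL6 itself had 19, 27 and 22 counts in OV3/SCR and 1, 2 and 0 in OV3/COX1KD, all at or under the floor of 3 counts there. The interferon-induced factor IRF1 had 411, 416 and 424 counts against 192, 204 and 226 (-0.98 ± 0.075, edgeR FDR 9.81e-10). The NF-kB subunits NFKB2 and RELB were lower (-0.70 and -0.68), while CEBPB and SOCS3 were higher (0.53 and 0.88), and NFKB1 and RELA were not called. The other called genes were IL6ST, JAK1, JAK2 and IFNGR1, which were lower (-0.71, -0.55, -0.32 and -0.30). CEBPA, IFNGR2, TNFRSF1A and STAT3 were called higher (0.82, 0.46, 0.23 and 0.23). Whether any of these bears on the complement genes was not tested.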
